A study of Mus musculus with 12 samples.

Results

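The enzymes described here oxidize ethanol to acetaldehyde and acetaldehyde to acetate. They were 10 genes of the 27827 gene names on the array: the alcohol dehydrogenases Adh1, Adh4, Adh5 and Adh7, the aldehyde dehydrogenases Aldh2, Aldh1a1, Aldh1b1 and Aldh3a2, catalase (Cat) and cytochrome P450 2E1 (Cyp2e1). Every non-control probe that carried one of these names was taken, which gave 13 probes: 3 for Adh1, 2 for Aldh2 and 1 for each of the other 8 genes. Hypothalamic RNA of male ICR mice, an outbred stock, had been hybridized to 12 Agilent arrays with 1 dye. The mice were 3 weeks old at the start and adapted to drinking tubes from day 1 to day 5. The 3 water pools came from mice that had water in both bottles. The 9 alcohol pools came from mice that could choose between water and 5% or 10% alcohol, and the labels call 3 of them low drinkers, 3 early high drinkers and 3 late high drinkers. The series text lets drinking last to day 57 and the sample labels put the sacrifice on day 51. Each array held a pool, of 3 mice in the water pools (9 mice in all) and of 1 to 3 mice in the alcohol pools (19 mice in all). A value is thus a mean over the mice of its pool, or that of 1 mouse where a pool held no more. The labels do not give the number of mice in each alcohol pool.

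Each of 3 slides carried 4 arrays. All water arrays were on slide 1, together with that of low drinker pool 1. Early high drinker pools 1 and 2 were on slide 2, as were the other 2 low pools. All late high drinker arrays were on slide 3, together with that of early high drinker pool 3. The arrays of slides 2 and 3 were scanned on 1 day and those of slide 1 on a later day. Neither early nor late high drinkers shared a slide with water. A fit with slide as a block ties early high drinkers to water only through the low drinker arrays of slides 1 and 2. Late high drinkers are tied to the other slides only through early high drinker pool 3, a single array, and then through those low drinker arrays. Low drinker pool 2 stood apart in dim spots, with a lower quartile of the signal of 63.2 intensity units against 22.3 to 34.0 on the other arrays. Of 12 marker genes of the hypothalamus, 11 were on the array and 10 were well above background on all 12 arrays, while of 4 liver genes Alb was well above background on 1 of 12, Apoa2 on 4, Ttr, which the choroid plexus also makes, on 11 and Cyp3a11 on 12.

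In the liver, cytosolic alcohol dehydrogenases carry most of the oxidation of ethanol, and the inducible microsomal enzyme Cyp2e1 adds to it at high intake. In the brain catalase, which uses hydrogen peroxide to oxidize ethanol in peroxisomes, is held to carry a large part. Acetaldehyde is then oxidized mainly by the mitochondrial enzyme Aldh2. Several of these enzymes have other substrates in the brain: Adh5 oxidizes the glutathione adduct of formaldehyde, Aldh1a1 makes retinoic acid and clears the aldehyde of dopamine in the dopamine neurons that express it, and Aldh3a2 oxidizes long-chain aldehydes of lipids.

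The enzymes parted first by whether they were measured at all. For 7 of the 10 genes (Adh1, Adh5, Aldh2, Aldh1a1, Aldh1b1, Aldh3a2 and Cat) at least 1 probe stood well above background on all 12 arrays. The probes of Adh4, Adh7 and Cyp2e1 were well above background on 0 of 12 arrays in every group. The Cyp2e1 probe (chromosome 7 of mm9, 147959585 to 147959644) read 4.91 to 6.59 intensity units on the water arrays, 6.57 to 30.9 on those of low drinkers, 5.44 to 18.8 on those of early high drinkers and 4.03 to 6.88 on those of late high drinkers. The lowest signal that was called well above background lay between 12.03 and 52.8 units, depending on the array. Adh4, an alcohol dehydrogenase found in the liver, read 5.63 to 42.9 units, and Adh7, the retinol-oxidizing form of the stomach lining, read 5.41 to 43.0. The highest reading of all 3 fell on low drinker pool 2, the array whose dim spots were raised, and the part of this in their values was not tested. No fold is given for these 3 genes, which were not tested, and a change below background could not be seen here.

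**Figure D1:**
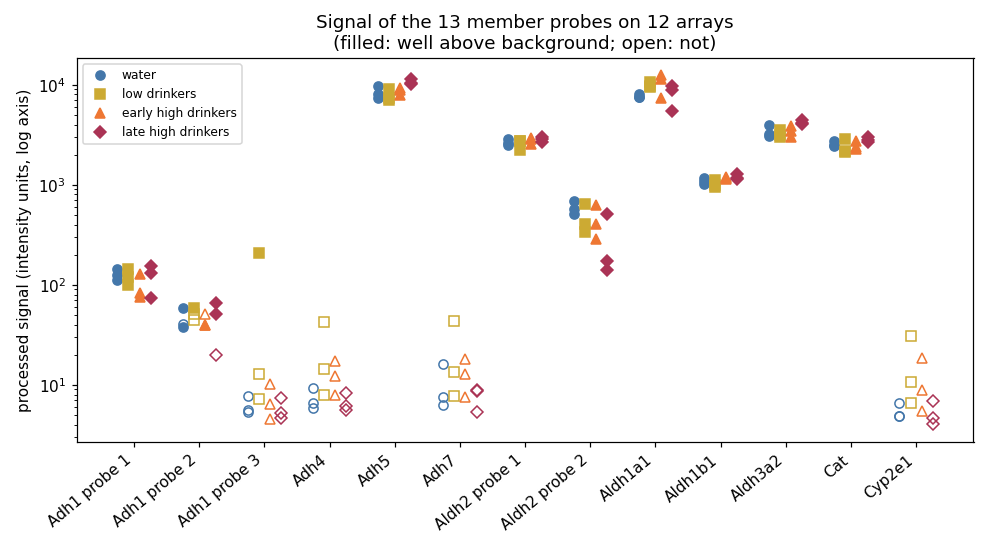
Processed signal of the 13 member probes on the 12 arrays, in intensity units on a log axis, with 1 point per array and symbols for the 4 groups. Filled points were well above background and open points were not: Adh4, Adh7 and Cyp2e1 have open points on all 12 arrays, while the filled points of Aldh2 probe 2 spread more widely than those of Aldh2 probe 1.

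The 4 alcohol dehydrogenase genes form a cluster, and their probes spanned 223.719 kb of chromosome 3 in mm9. Within this cluster Adh5 and probe 1 of Adh1 were well above background on all 12 arrays, while Adh4 and Adh7 were on 0. The promoter sequences of RefSeq (250 bases before to 50 after a gene's start, GRCm38.p6) were at hand for 9 of the 10 genes, in 11 windows. Over all 32851 windows the median number of CpG dinucleotides was 7, with quartiles of 3 and 20. The 3 genes that were not well above background had 1 (Adh4), 3 (Adh7) and 4 (Cyp2e1). Among the detected genes the windows held 26 and 3 CpG for the 2 starts of Adh5, 21 for Aldh3a2, 11 for Cat, 7 for Aldh1b1, 6 for Adh1, and 3 and 1 for the 2 starts of Aldh1a1. The detected genes thus lay on both sides of the median. The letters TATAAA, on either strand, were in the windows of Adh7, Cyp2e1 and the CpG-poor start of Adh5, and in 13.6% of all windows. The letters GGGCGG, on either strand, were in those of Aldh1b1, Aldh3a2, Cat and the CpG-rich start of Adh5, and in 35.7% of all windows. The 250 bases before the start of neighboring cluster members, Adh4 at 0 of 12 arrays and Adh5 at 12 of 12, are shown because they lie at opposite ends of this range, with CpG dinucleotides in capitals (1 and 21 in these 250 bases). They are on the + strand of GRCm38.p6, Adh4 at chr3:138415247-138415496 and Adh5 at chr3:138442843-138443092.
Adh4: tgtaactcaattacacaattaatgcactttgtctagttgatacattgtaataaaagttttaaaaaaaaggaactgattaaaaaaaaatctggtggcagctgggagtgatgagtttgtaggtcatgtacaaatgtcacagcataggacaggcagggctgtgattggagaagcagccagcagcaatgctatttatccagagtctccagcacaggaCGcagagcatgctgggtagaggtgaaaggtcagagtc
Adh5: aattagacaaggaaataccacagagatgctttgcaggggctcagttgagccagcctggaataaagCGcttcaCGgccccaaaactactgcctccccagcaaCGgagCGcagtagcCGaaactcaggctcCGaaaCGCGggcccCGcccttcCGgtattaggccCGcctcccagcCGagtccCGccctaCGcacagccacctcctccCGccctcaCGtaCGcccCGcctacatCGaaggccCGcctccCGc

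Whether alcohol drinking was accompanied by a change in these enzymes was asked by comparing the 9 alcohol arrays with the 3 water arrays. Of the 13 probes, 9 (of 7 genes) had enough values to be tested. By limma 0 of 9 passed an adjusted p of 0.05, and 0 of 9 an unadjusted one. Over all 32376 probes tested, 0% passed the adjusted p and 5.53% the unadjusted one. The methods' t-test gave 0 of 9 at both, beside 0% and 5.21% of all probes. The values are log2 signals minus the 75th percentile of each array, so 0 stands for that percentile and 1 unit for a doubling. Across the brightest probe of each of the 7 genes the difference of alcohol minus water ran from -0.23 (Adh1) to 0.25 (Aldh1a1), with a median of 0.05, beside a median of 0.03 over all probes. In 5 of the 7 the alcohol mean was above the water mean and in 2 below it. With slide or scan day as a fixed block the counts were 6 and 1. Both blocks give the same difference, which comes from low drinker pool 1 against water alone. With no block and 1 array left out, the counts ran from 4 and 3 (without water pool 3) to 6 and 1 (without water pool 1 or 2).

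Catalase had the smallest SD over the 12 arrays of the 9 tested probes, 0.09. Its probe lies on chromosome 2 of mm9 (103294660 to 103294719). Cat averaged 0.61 ± 0.11 (SD, n = 3) in water, 0.57 ± 0.14 (SD, n = 3) in low, 0.57 ± 0.02 (SD, n = 3) in early high and 0.62 ± 0.10 (SD, n = 3) in late high drinkers. All 12 arrays fell within 0.26 log2 units, and the groups overlapped. Its difference of alcohol minus water was -0.02 (standard error 0.07, 95% confidence interval -0.17 to 0.12; limma, adjusted p = 0.949; exact permutation test over 220 splits, 2-sided p = 0.682).

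Aldh2, which removes acetaldehyde, has a probe in its coding sequence (probe 1, chromosome 5 of mm9, 122022137 to 122022690, across a splice junction). It is shown because the second probe of the gene, described further on, read differently; its sequence lies on the - strand.
Aldh2 probe 1: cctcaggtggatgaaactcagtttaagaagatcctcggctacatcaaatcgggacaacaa
It read 0.71, 0.71 and 0.49 in the water pools, 0.66, 0.83 and 0.53 in low drinkers, 0.77, 0.83 and 0.69 in early high drinkers, and 0.70, 0.66 and 0.54 in late high drinkers. Each alcohol group overlapped with water. The alcohol arrays differed from water by 0.05 (standard error 0.08, 95% confidence interval -0.12 to 0.22; limma, adjusted p = 0.894).

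Aldh1b1, a second mitochondrial acetaldehyde dehydrogenase (chromosome 4 of mm9, 45816960 to 45817019), stayed between -0.70 and -0.38 on the 12 arrays and differed by 0.04 (standard error 0.07; limma, adjusted p = 0.910). It was highest in early high drinker pools 1 and 2, at -0.38 and -0.50, and the third pool of that group, at -0.62, lay among the water pools. All 3 low pools lay below the water mean and all 3 early high pools above it, as did those of 0.613% of the 29521 probes measured on all 12 arrays, and of 1.91% with either group as the lower one. Aldh3a2 (chromosome 11 of mm9, 61058257 to 61058290) stayed between 0.88 and 1.25 and differed by 0.07 (standard error 0.08; limma, adjusted p = 0.865). This difference was 0.16 without water pool 1 and 0.0035 without water pool 3.

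Adh1, the classical ethanol-oxidizing alcohol dehydrogenase, has a pair of probes near the end of its coding sequence that share 30 of their 60 bases. They are shown because they differ in how well they were detected, on the + strand of chromosome 3 in mm9 (137952821 to 137952880, and 137952851 to 137953504 across a splice junction), with the shared bases in capitals.
Adh1 probe 1: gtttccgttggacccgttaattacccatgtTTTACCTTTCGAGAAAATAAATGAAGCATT
Adh1 probe 2: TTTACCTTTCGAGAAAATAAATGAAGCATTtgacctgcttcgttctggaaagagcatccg
Probe 1 stood well above background on 12 of 12 arrays and probe 2 on 7 of 12. Probe 1 read -3.78, -3.82 and -3.63 in the water pools, -3.60, -3.94 and -3.66 in low drinkers, -4.21, -4.43 and -3.85 in early high drinkers, and -3.58, -3.80 and -4.63 in late high drinkers. All 3 early high drinker pools lay below all 3 water pools, which was so for 5.58% of the 29521 probes measured on all 12 arrays. Early high drinkers differed from water by -0.42 (standard error 0.25, 95% confidence interval -0.98 to 0.14; limma, adjusted p = 0.890), and with 3 pools against 3 an exact permutation test cannot go below 0.10, which it gave. With scan day as a fixed block this difference was -0.21 (adjusted p = 0.960) and with slide as a fixed block -0.37 (adjusted p = 0.945). The alcohol arrays together differed from water by -0.23 (standard error 0.21; limma, adjusted p = 0.846), and by 0.14 with slide as a fixed block, a fit in which the difference comes from low drinker pool 1 alone. For early high drinkers minus water, probe 2 gave -0.02 (standard error 0.38, 95% confidence interval -0.88 to 0.84), an interval that holds the -0.42 of probe 1. It was well above background on 2 of 3 arrays in both of these groups. Probe 3, filed under the name Adh1 but placed on the - strand of the gene's region (137945024 to 137945083), was under the signal to noise limit on 11 arrays and an outlier spot on the other, and was not tested.

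**Figure D2:**
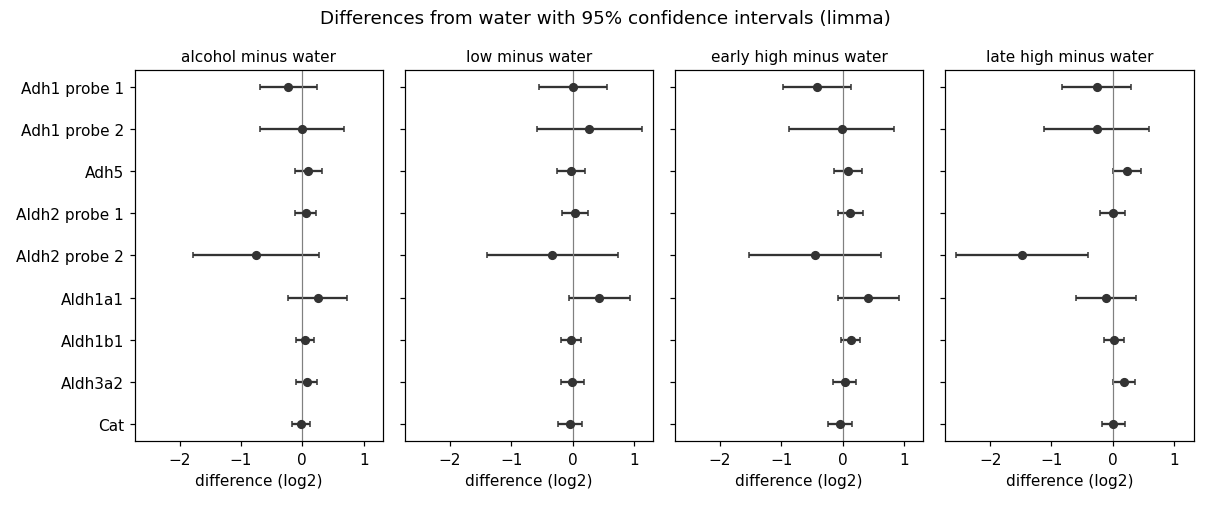
Differences of all alcohol arrays, low, early high and late high drinkers from water, in log2 units, for the 9 tested probes, with 95% confidence intervals from limma (3 water arrays, 9 alcohol arrays, 3 per drinking group). The intervals cross 0 in every panel except those of Adh5 (0.23) and Aldh2 probe 2 (-1.47) for late high drinkers, neither of which passed an adjusted p of 0.05.

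The 3 drinking groups were next set against water one by one, and 0 of the 9 probes passed an adjusted p of 0.05 by limma for any of them. At an unadjusted p, 0 of 9 passed for low drinkers, 0 of 9 for early high drinkers and 2 of 9 for late high drinkers. The matching shares over all 31622 probes tested were 9.08%, 4.7% and 15.9% (6.97% higher and 8.94% lower in late high drinkers), and those at the adjusted p were 0.218%, 0% and 0%. Among the 4 groups 0 of 9 passed an adjusted p, where 0.00632% of all probes did, and 0 of 9 an unadjusted one, where 14.4% did. With the methods' t-test 0 of 9 passed after adjustment for each pair of groups, beside 0.00316% of all probes for early high drinkers against water and 0% for the other pairs. Before adjustment it gave 1 of 9 for low drinkers (Aldh1a1), 0 of 9 for early high and 0 of 9 for late high drinkers, beside 3.9%, 9.87% and 16.6% of all probes by the same test. A count of 2 in 9 beside 15.9% of all probes is not a result about the enzymes.

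Those 2 were Adh5 and the second probe of Aldh2. Adh5 (chromosome 3 of mm9, 138118154 to 138118213) read 2.50, 2.23 and 2.18 in the water pools, 2.37, 2.21 and 2.25 in low drinkers, 2.39, 2.52 and 2.27 in early high drinkers, and 2.48, 2.65 and 2.48 in late high drinkers. The late high pools had the highest mean, but water pool 1 and early high drinker pool 2 lay above 2 of them. Late high drinkers differed from water by 0.23 (standard error 0.10, 95% confidence interval 0.01 to 0.46; limma, unadjusted p = 0.0451, adjusted p = 0.303), a ratio of 1.17. With slide as a fixed block this difference was 0.55 (adjusted p = 0.623). Within slide 3 the late high pools averaged 0.26 above early high drinker pool 3, and within slide 2 the 2 early high pools averaged 0.23 above the 2 low pools. The 6 high drinker arrays differed from the 3 low drinker arrays by 0.19 (standard error 0.09, limma, adjusted p = 0.351). With array weights, which give less weight to arrays that fit the model poorly, this difference was 0.23 and passed (adjusted p = 0.0499). In that fit 4635 of 31622 probes passed, so the call is not a result about the enzymes.

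High and low drinkers were compared over the 6 and 3 arrays of these groups, and late and early high drinkers over 3 and 3. By limma 0 of 9 probes passed an adjusted p in either comparison, where 0.0221% and 0% of all probes did. At an unadjusted p 0 of 9 and 1 of 9 passed, beside 14.7% and 12.4% of all probes. The 1 probe was that of Aldh1a1, lower in late high drinkers as 8.04% of all probes were. The methods' t-test gave 0 of 9 and 1 of 9 before adjustment, beside 9.3% and 11.9% of all probes by that test, and there the 1 probe was that of Aldh3a2, whose late high pools (1.13, 1.18 and 1.25) all lay above its early high pools (0.98, 1.06 and 1.08), as those of 8.46% of all probes did. By limma Aldh3a2 differed between these groups by 0.14 (standard error 0.08, adjusted p = 0.4927), and water pool 1, at 1.20, lay above 2 of the 3 late high pools.

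**Figure D3:**
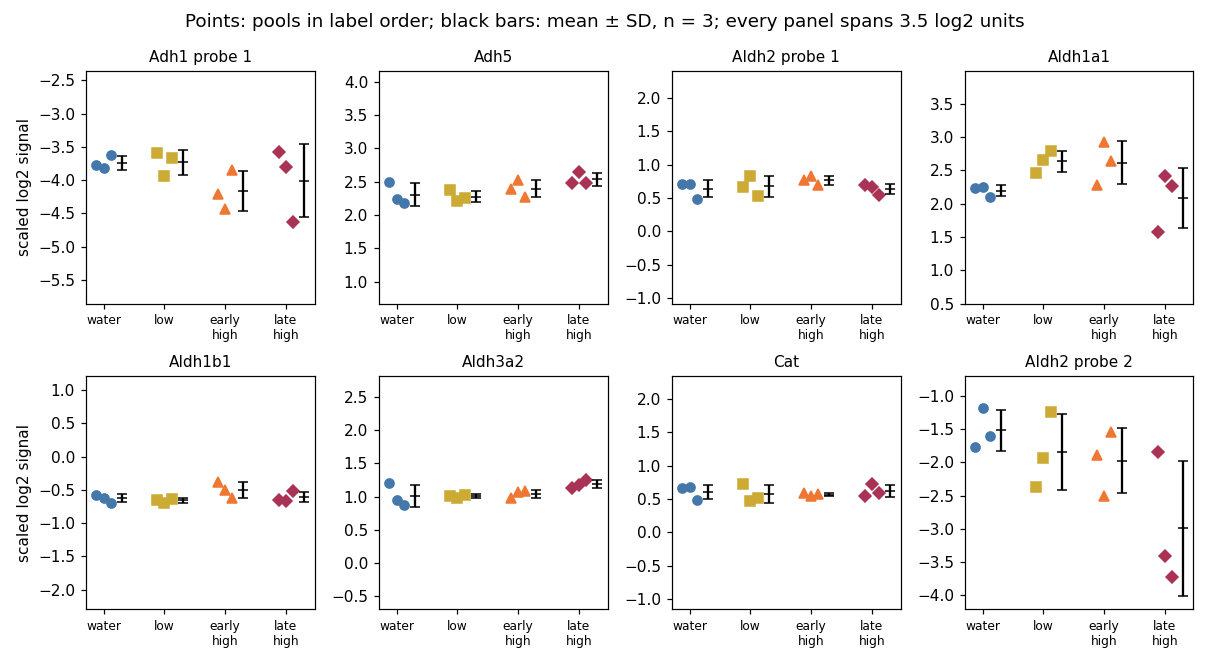
Scaled log2 signal of the brightest probe of the 7 detected enzymes and of the second Aldh2 probe in each pool, by group, with black bars for the mean ± SD (n = 3); every panel has its own level and the same height of 3.5 log2 units. Cat, Aldh1b1, Aldh2 probe 1 and Aldh3a2 vary least (SD over 12 arrays 0.09 to 0.11), late high drinker pool 1 is lowest for Aldh1a1, and late high drinker pools 2 and 3 are lowest for Aldh2 probe 2.

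On the brightest probes, Aldh1a1 was the enzyme whose pools differed most for its level. Its SD over the 12 arrays, 0.36, was larger than that of 98.8% of the 2952 probes in the same level decile, whose median SD was 0.09. Cat, by the same measure, stood above 38.4% of its decile, Aldh1b1 at 23.4%, Adh5 at 86.6%, Aldh2 probe 1 at 62.1% and Aldh3a2 at 62.7%. Aldh1a1 (chromosome 19 of mm9, 20717764 to 20717823) read 2.24, 2.25 and 2.11 in the water pools, 2.47, 2.66 and 2.79 in low drinkers, 2.28, 2.92 and 2.65 in early high drinkers, and 1.57, 2.42 and 2.27 in late high drinkers. All 3 low pools and all 3 early high pools lay above all 3 water pools, a pattern shown by 6.9% and 10.8% of all probes. Low drinkers differed from water by 0.44 (standard error 0.22, 95% confidence interval -0.05 to 0.93; limma, adjusted p = 0.594) and early high drinkers by 0.42 (standard error 0.22, 95% confidence interval -0.07 to 0.91; limma, adjusted p = 0.890). The latter difference was 0.27 without early high drinker pool 2 and 0.59 without pool 1. Both comparisons share the water arrays. With slide as a fixed block these differences were 0.27 and 0.15 (standard errors 0.33 and 0.44). Within slide 1 low drinker pool 1 lay 0.27 above the mean of the water pools, and within slide 2 the early high pools averaged 0.12 less than the low pools (a difference of -0.12). Late high drinkers differed from early high drinkers by -0.53 (standard error 0.22; limma, unadjusted p = 0.0365, adjusted p = 0.378), and without late high drinker pool 1 by -0.27 (unadjusted p = 0.143).

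The level of Aldh1a1 went up and down with the marker genes of dopamine neurons, which this enzyme is known to share. These are Th (tyrosine hydroxylase), Slc6a3 (the dopamine transporter) and Slc18a2 (the vesicular monoamine transporter), all well above background on 12 of 12 arrays. Slc6a3 read 0.70, 1.80 and 1.97 in the water pools, 2.92, 2.79 and 2.76 in low drinkers, 2.21, 3.40 and 2.66 in early high drinkers, and -0.82, 3.09 and 2.21 in late high drinkers. Late high drinker pool 1 was thus lowest for Slc6a3 as for Aldh1a1, and early high drinker pool 2 was highest for both. As the mean deviation of the 3 markers from their own means, the list stood between -0.84 and -0.21 in water, 0.30 and 0.44 in low, 0.08 and 0.76 in early high, and -1.37 and 0.49 in late high drinkers. Summed on the linear scale, as multiples of the 75th percentile of each array, they ranged from 4.08 to 6.95 in water, 10.8 to 11.8 in low, 8.40 to 15.7 in early high and 2.96 to 12.8 in late high drinkers. Over the 12 arrays Aldh1a1 correlated with this deviation at r = 0.88 (permutation test with 100000 resamples, p = 0.00018) and rho = 0.87 (permutation p = 0.00058). This was 1 of 126 relations, of 9 probes with 14 marker lists, and the adjusted p was 0.0218 for r and 0.0365 for rho. Without late high drinker pool 1 and water pool 1, the 2 arrays farthest from the median of the list, r was 0.82, and with the mean of each slide removed it was 0.85. A slide holds 4 arrays, too few for a value of its own. Alcohol minus water was positive for all 3 markers, with 0 of 3 past an adjusted p of 0.05 and 1 of 3 past an unadjusted one by limma, where 0% and 5.53% of all probes did. In whole tissue a different number of dopamine neurons in the dissected piece and a different amount of RNA per neuron cannot be told apart, and the part of either in the Aldh1a1 values was not tested.

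Of all 29521 probes with 12 values, 1 per symbol, those most like Aldh1a1 over the 12 arrays were Aldh1a7 (r = 0.92), Calhm5 (r = 0.91) and Fam214a (r = 0.90). Aldh1a7 is a close relative of Aldh1a1. Its probe, well above background on 11 of 12 arrays, matched that of Aldh1a1 at no more than 21 bases in any alignment without gaps and shared no run longer than 8 bases. It read -5.00, -4.71 and -4.72 in the water pools, -3.95, -4.05 and -3.49 in low, -4.14, -3.20 and -4.01 in early high, and -6.51, -3.57 and -5.08 in late high drinkers. Again late high drinker pool 1 was lowest and early high drinker pool 2 highest. For Adh1 the 3 most like were Hnrnpu (r = 0.90), Gpatch11 (r = 0.90) and Bcl2l2 (r = 0.89). All of these are the highest of 29521 correlations over only 12 arrays. A search of that size gives high values among unrelated probes too, and they were not tested.

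**Figure D4:**
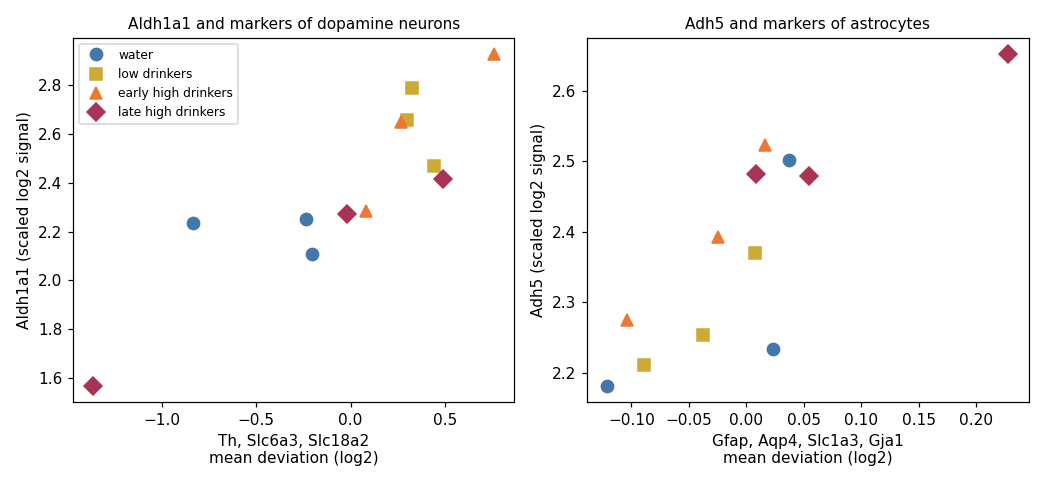
Scaled log2 signal of Aldh1a1 against the mean log2 deviation of 3 dopamine neuron markers (left), and of Adh5 against that of 4 astrocyte markers (right), 1 point per pool with symbols for the 4 groups. Both enzymes rise with their markers (r = 0.88 and 0.84), late high drinker pool 1 lies at the lower left for Aldh1a1 and late high drinker pool 2 at the upper right for Adh5.

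Adh5 went with the astrocyte markers Gfap (the glial filament protein), Aqp4 (the water channel of astrocyte endfeet), Slc1a3 (a glutamate transporter) and Gja1 (connexin 43 of astrocyte gap junctions), all well above background on 12 of 12 arrays. Their summed level, on the same linear scale, ranged from 31.5 to 36.0 in water, 32.5 to 34.5 in low, 32.3 to 35.2 in early high and 35.7 to 39.7 in late high drinkers. The late high drinkers, which had the highest Adh5, thus also had the highest list, with an overlap at the lower end. Over the 12 arrays r was 0.84 (permutation p = 0.00037, adjusted p = 0.0218 over the same 126 relations) and rho 0.75 (permutation p = 0.00681, adjusted p = 0.215), so the rank correlation did not pass. Without late high drinker pool 2 and water pool 3 r was 0.69, and with slide means removed 0.82. The part of astrocyte content in the Adh5 values was not tested. Cat had r = 0.70 with the same list (permutation p = 0.00779, adjusted p = 0.196).

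Markers of the pituitary, which hangs below the hypothalamus, are given beside the values of Adh1 and Aldh1b1. Of 5 such genes (Gh, Prl, Cga, Lhb and Tshb) all were tested and the last 3 were well above background on 12 of 12 arrays. In early high drinkers minus water 4 of 5 were lower at an unadjusted p by limma and 0 of 5 at an adjusted one, where 4.7% and 0% of all probes passed. The summed level of Cga, Lhb and Tshb, on the same linear scale, ranged from 3.10 to 11.7 in water, 6.81 to 7.73 in low, 0.889 to 3.33 in early high and 3.89 to 6.38 in late high drinkers. Aldh1b1 went against this list, with rho = -0.84 (permutation p = 0.00113, adjusted p = 0.0475) and r = -0.66 (permutation p = 0.0274, adjusted p = 0.374), so only the rank correlation passed. Its r was -0.67 without early high drinker pool 2 and water pool 3, and -0.63 with slide means removed. Adh1 probe 1 went with the list at r = 0.70 (permutation p = 0.0122, adjusted p = 0.256) and rho = 0.68 (permutation p = 0.0183, adjusted p = 0.384). The part of pituitary tissue in these values was not tested. Of the 126 relations, 3 passed an adjusted p by r and 3 by rho, and each of them is given here.

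Among the 7 detected enzymes themselves, taken in 21 pairs on their brightest probes, no correlation over the 12 arrays passed an adjusted permutation p of 0.05. The highest was that of Adh5 with Aldh3a2, r = 0.79 (permutation p = 0.00346, adjusted p = 0.0727) and rho = 0.80 (permutation p = 0.00285, adjusted p = 0.0598). It was 0.70 without the 2 farthest arrays and 0.73 with slide means removed. The lowest was that of Adh1 with Aldh1b1, r = -0.70 (permutation p = 0.014, adjusted p = 0.147).

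The second probe of Aldh2 read another part of the locus and behaved differently from the first. It stands for a cDNA filed under Aldh2 and lies 5.921 kb beyond probe 1 in the direction of transcription (chromosome 5 of mm9, 122016157 to 122016216, - strand). It was well above background on 12 of 12 arrays. It read -1.77, -1.18 and -1.60 in the water pools, -2.37, -1.93 and -1.24 in low drinkers, -1.88, -2.50 and -1.54 in early high drinkers, and -1.84, -3.41 and -3.73 in late high drinkers. Late high drinker pools 2 and 3 lay below all other arrays, and late high drinker pool 1 just below the lowest water pool. Its SD of 0.80 was larger than that of 99.5% of the 2952 probes in its level decile. Late high drinkers differed from water by -1.47 (standard error 0.48, 95% confidence interval -2.55 to -0.40; limma, unadjusted p = 0.0123, adjusted p = 0.189), a ratio of 0.36. All 3 late high pools lay below all 3 water pools, as those of 13.5% of all probes did. With slide as a fixed block the difference was -2.91 (adjusted p = 0.603), and the lowest adjusted p under any other setting tried was 0.104. Over the same arrays probe 1 differed between these groups by 0.00 (standard error 0.09), and the 2 probes of the gene did not go together (r = 0.06, permutation p = 0.849; rho = -0.09, permutation p = 0.783). Without the 2 arrays farthest from the median of probe 1, r was 0.52.

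The probe most like it among all probes with 12 values was that of Acad12, an acyl-CoA dehydrogenase gene, with r = 0.96 over the 12 arrays and 0.95 with slide means removed. This search was made after the values of the second Aldh2 probe were seen. The Acad12 probe lies on the same strand of chromosome 5, 32.237 kb away in mm9 (122048394 to 122048453), on the far side of Aldh2 probe 1. Both were well above background on all 12 arrays, and their sequences matched at no more than 22 bases in any alignment without gaps. Acad12 read -3.09, -2.55 and -3.07 in the water pools, -3.30, -2.96 and -2.69 in low, -3.15, -3.39 and -2.91 in early high, and -3.38, -3.87 and -4.25 in late high drinkers. Late high drinker pools 2 and 3 were again the lowest of the 12 arrays and water pool 2 the highest. It differed between late high drinkers and water by -0.93 (standard error 0.25; limma, adjusted p = 0.141).

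Within 100 kb of the second Aldh2 probe the array has 14 probes, itself included, and 11 of them had a value on every array. A probe for the transcript TC1662565, 5.144 kb away and on the same strand, correlated with it at r = 0.67, and a second Acad12 probe, 39.544 kb away, at r = 0.57. The brighter probe of Mapkapk5, 39.387 kb to the other side, had r = -0.13, and Acad10, at 55.087 kb, had r = -0.23. The probes that went with the second Aldh2 probe thus lay among others that did not. These correlations are given as a description of this window over 12 arrays, and the probes named in it were chosen after their values were seen.

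**Figure D5:**
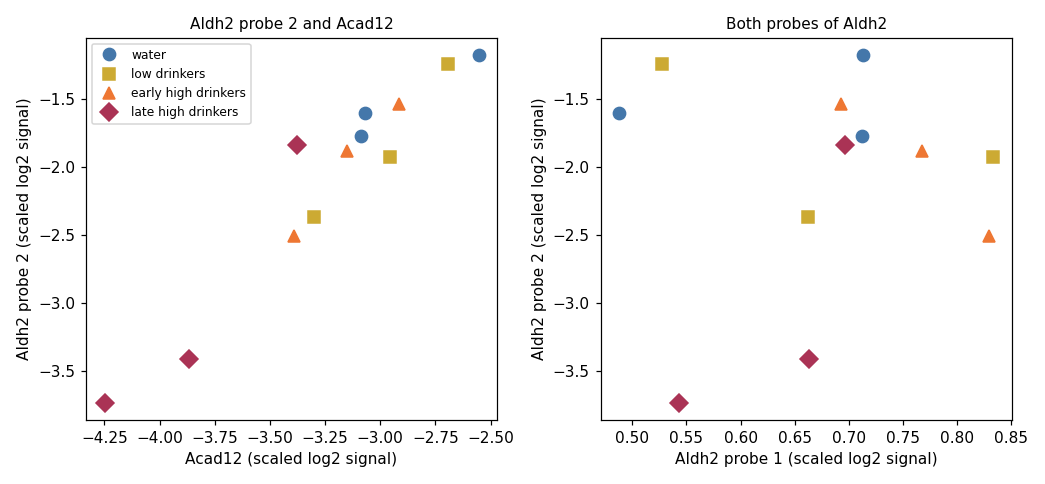
Scaled log2 signal of the second Aldh2 probe against that of Acad12 (left, r = 0.96) and of Aldh2 probe 1 (right, r = 0.06), 1 point per pool with symbols for the 4 groups. Late high drinker pools 2 and 3 lie at the lower left with Acad12 and are not set apart by Aldh2 probe 1.

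The second Aldh2 probe also went with the red blood cell markers Hbb-b1, Hba-a1 and Alas2 (r = 0.82, permutation p = 0.00052, adjusted p = 0.0218; rho = 0.87, permutation p = 0.00045, adjusted p = 0.0365). All 3 were well above background on 12 of 12 arrays. Their summed level, on the same linear scale, ranged from 120.4 to 148 in water, 96.4 to 148 in low, 104.7 to 132 in early high and 74.7 to 102 in late high drinkers, and was thus lower in all late high pools than in all water pools. Without late high drinker pool 2 and water pool 2 r was 0.69, and with slide means removed 0.76. The part of blood in the values of this probe was not tested.

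Around the enzymes, 53 genes of neighboring pathways were read in 6 lists, of which 52 were on the array, 49 were tested and 46 were well above background on all 12 arrays. Between alcohol and water 0 of 49 passed an adjusted p by limma. At an unadjusted p 3 were higher and 1 lower; over all probes 5.53% passed in either direction. The 3 were Aldh16a1 (0.16), the aldehyde oxidase Aox1 (0.16) and the xanthine dehydrogenase Xdh (0.62), and the 1 was the carbonyl reductase Cbr3 (-0.13). These 4 were named after their values were seen. The median difference over the 49 was 0.04, beside 0.03 over all probes tested. Of the 49, 32 were positive. With a median above 0, most of all probes were positive too, and their share was not computed. For late high drinkers minus water 0 of 49 passed an adjusted p, while 8 were higher and 4 lower at an unadjusted p, beside the 15.9% of all probes given above (6.97% higher and 8.94% lower).

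Of the relatives of the alcohol and aldehyde dehydrogenases 16 were tested, and the brightest were Aldh6a1, of valine breakdown (0.01, standard error 0.07), and Aldh1l1, the folate enzyme of astrocytes (0.04, standard error 0.06), each given as alcohol minus water. The acetate-activating enzymes Acss1 and Acss2, which turn acetate into acetyl-CoA, differed by 0.04 (standard error 0.09) and 0.16 (standard error 0.11). Among 6 aldehyde reductases and oxidases, Akr1a1 differed by 0.04 and Cbr1 by 0.03. Por, which passes electrons to cytochrome P450 enzymes, differed by 0.16 (standard error 0.08; limma, unadjusted p = 0.0771, adjusted p = 0.819) and Cyb5a, a partner of the same enzymes, by -0.08 (standard error 0.06), both as alcohol minus water. Around catalase 16 genes were tested, with Sod1 at 0.03 (standard error 0.04) and Prdx2 at -0.01 (standard error 0.04) for alcohol minus water. Of the 4 genes of non-oxidative ethanol conjugation, Pld2 differed by 0.01 (standard error 0.07) and Sult1a1 by 0.33 (standard error 0.25).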

How the data were processed

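Hypothalamic RNA of 12 pools was measured. The authors deposited for each array the Agilent Feature Extraction output (version 10.5.1.1 in the file headers), with a background-subtracted, detrended signal intensity per spot on a linear scale, and a table of 1 intensity per probe, used as an alternative. Neither was scaled between arrays. Here each array's log2 signals were centered on their 75th percentile (43379 non-control spots). Spots that were non-uniform outliers, or whose signal was under 2 times its error, counted as missing, and replicate spots were averaged. The comparison of alcohol and water took probes measured on 2 or more water arrays and 5 or more alcohol arrays, and the other comparisons those measured on 2 or more arrays of every group. Groups came from the labels. They were fitted in limma 3.58.1 (lmFit, eBayes; R 4.3.3), with Benjamini-Hochberg adjustment over all probes and an exact permutation test beside it, on steps first tested on simulated data. The number of arrays limits the precision, and p-values measure the spread between pools.

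Positions of probes are those of mm9 in the array files, and symbols were updated through RefSeq accessions (25263 of 41174 probes), which left the names of all 13 enzyme probes as they were. Genes named were the 10 enzymes on every probe, the 2 brightest genes of each pathway list and any past an adjusted p of 0.05, and the 3 symbols most like the 2 enzymes with the largest SD. Other genes are named as markers, or where the text says that they were chosen after their values were seen. The enzymes, lists and tests were chosen with earlier results of these data known. Marker lists covered hypothalamus, neurons, dopamine neurons, astrocytes, oligodendrocytes, microglia, endothelium, ependyma and tanycytes, choroid plexus, meninges, red blood cells, pituitary, thalamus and liver. Alternatives covered the background correction (normexp, offset 50), scaling, filters, the authors' table, slide and scan day, replicate number, array weights, the methods' t-test, each array left out and the mean of a gene's probes. Figures were drawn with matplotlib 3.10.9.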

Additional observations from a re-analysis of the deposited data

Results flagged for a closer look

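On each of the 13 probes the 9 alcohol arrays were searched for 1 that stood far from the rest. There were 3 such probes. For independent, normally spread values this rule flags about 1 in 20. The share of all probes that it flags was not computed, so the count is a description only. Late high drinker pool 1 lay below the others for Aldh1a1, at 1.57 against 2.27 for the next array, a gap of 0.518 of the range, and it was the lowest of the 9 for all 3 dopamine neuron markers too. Late high drinker pool 3 lay below the others on Adh1 probe 2, at -6.55 against -5.52 (gap 0.587), and was not well above background there. On Adh1 probe 3 low drinker pool 3 stood at -2.89 against -6.88 (gap 0.697), on a spot that Feature Extraction had called a non-uniform outlier and that entered no test. For Aldh1b1 all 3 low drinker pools lay below the water mean and all 3 early high drinker pools above it, as did those of 0.613% of the 29521 probes measured on all 12 arrays (1.91% with either group as the lower one). This was 1 of 9 probes searched over 3 pairs of groups. The groups differed by -0.16 as low minus early high, and this difference was not tested.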

How the results depend on the processing

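Under all alternatives, the count of enzyme probes past an adjusted p of 0.05 was 0 in each comparison, except for 1 probe (Adh5) between high and low drinkers with array weights. In that fit all probes passed at a higher rate than the enzyme probes did, by the counts given with Adh5 above. At the unadjusted p the methods' t-test gave 1 probe for low drinkers against water and 1 for late against early high drinkers, where that test called 3.9% and 11.9% of all probes. The pathway lists, run under the alternatives for alcohol minus water only, gave 0 at the adjusted p. With each array left out in turn the counts at the adjusted p were 0 to 0, for the enzyme probes in each comparison and for the pathway lists between alcohol and water. The replicate numbers of the labels did not pair the pools (correlations of deviations from -0.09 to 0.18), and with a replicate block the counts were also 0. The difference of alcohol minus water turned in sign for 5 probes under some setting. With slide, or scan day, as a fixed block it comes from low drinker pool 1 alone. There it was 0.14 for Adh1 probe 1, 0.35 for Adh1 probe 2, -0.0178 for Aldh1b1 and 0.11 for Cat. With slide as a random block it was 0.0899 for Adh1 probe 2 and 0.0114 for Cat. Normexp gave 0.0531 for Adh1 probe 2 and -0.0180 for Aldh1b1, and no scaling 0.00202 for Adh1 probe 2. The mean of both Aldh2 probes gave -0.35. With each array left out the ranges were -0.10 to 0.16 for Adh1 probe 2, -0.0220 to 0.0905 for Aldh2 probe 1, 0.00713 to 0.0669 for Aldh1b1, -0.27 to -0.14 for Adh1 probe 1 and -0.0866 to 0.00688 for Cat. The cause of these changes was not tested. Late high drinkers minus water ran from -2.05 (without late high drinker pool 1) to -1.11 (without pool 3) for the second Aldh2 probe. Late minus early high drinkers for Aldh1a1 ran from -0.70 to -0.27.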
